A study of Mus musculus with 8 samples.

Results

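Collecting duct principal cell genes were examined in whole kidneys of mice with the Alport mutation. The 10 genes are Avpr2, Aqp2, Aqp3, Aqp4, Scnn1a, Scnn1b, Scnn1g, Fxyd4, Hsd11b2 and Gata3. They were taken by name from the value table, and all 10 were measured among 22180 genes. Each kidney came from a mouse aged 2 months and was hybridised to 1 array, 8 arrays in all. Of these, 3 were from Col4a3-/-OPN-/- mice, which lack Col4a3 and osteopontin (double mutants), 3 from Col4a3-/- mice, whose labels give no other mutation (single mutants), and 2 from wild type mice. Both mutant groups lack Col4a3, a chain of the type IV collagen of the glomerular basement membrane whose loss models Alport syndrome. The labels used here give no strain, litter or sex, and nothing in them names a promoter, a Cre or a pool of animals. Nothing says whether the kidneys came from separate litters, so p-values measure only the spread between these arrays.

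Principal cells line the collecting duct and set the final water and salt content of urine. The hormone vasopressin binds the receptor Avpr2 on the blood side of the cell, and the cAMP that follows moves the water channel Aqp2 into the membrane facing the urine. Water then leaves the cell through Aqp3 and Aqp4 on the blood side. Sodium enters through the epithelial sodium channel, built from the subunits Scnn1a, Scnn1b and Scnn1g, whose amount follows aldosterone. Hsd11b2 inactivates glucocorticoid so that the mineralocorticoid receptor can respond to aldosterone, Fxyd4 is a small partner of the sodium pump, and Gata3 is a transcription factor of the collecting duct. Several of these genes are not made by principal cells alone. In mouse kidney Aqp4 is also found in the straight part of the proximal tubule, sodium channel subunits and Hsd11b2 in the connecting tubule, Aqp3 in urothelium and Gata3 in T cells.

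The promoters of 2 water channels and 1 sodium channel subunit are shown because these genes are known targets of vasopressin or aldosterone. RefSeq promoter sequences (GRCm38.p6) were found for 7 of the 10 genes. For Aqp2, Aqp3 and Scnn1b the 250-base window ends at the start of the gene, and these 3 windows are printed 5′ to 3′. For Avpr2, Scnn1g, Fxyd4 and Gata3 the window belongs to a start that lies 337, 59, 379 and 9353 bases inside the gene, so those windows are not printed. Capitals mark matches on either strand to AGATAA, the core bound by factors such as Gata3, to TGACG, the core of the cAMP response element, or to TGTTCT, the core of the steroid hormone response element. The intervals are chr15:99578806-99579055 (plus strand) for Aqp2, chr4:41098184-41098433 (minus) for Aqp3 and chr7:121864788-121865037 (plus) for Scnn1b.
Aqp2: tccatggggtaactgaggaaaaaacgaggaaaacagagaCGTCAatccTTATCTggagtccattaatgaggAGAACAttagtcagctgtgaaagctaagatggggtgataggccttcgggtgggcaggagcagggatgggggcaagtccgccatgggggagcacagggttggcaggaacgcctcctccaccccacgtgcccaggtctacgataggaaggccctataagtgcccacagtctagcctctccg
Aqp3: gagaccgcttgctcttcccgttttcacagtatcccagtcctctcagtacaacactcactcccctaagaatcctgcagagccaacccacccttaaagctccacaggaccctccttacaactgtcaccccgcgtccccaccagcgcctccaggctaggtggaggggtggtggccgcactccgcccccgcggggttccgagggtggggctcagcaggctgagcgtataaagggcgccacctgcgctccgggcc
Scnn1b: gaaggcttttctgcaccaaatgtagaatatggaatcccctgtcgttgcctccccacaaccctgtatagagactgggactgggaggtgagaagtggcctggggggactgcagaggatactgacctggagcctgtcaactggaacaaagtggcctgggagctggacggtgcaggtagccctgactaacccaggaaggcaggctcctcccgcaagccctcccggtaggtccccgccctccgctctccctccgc

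Aqp2 held all 3 motifs within this window. Its TGACG match began 211 bases, its AGATAA match 202 bases and its TGTTCT match 179 bases before the start, all read on the opposite strand. The window of Avpr2 held 2 matches to TGTTCT. The windows of Aqp3, Scnn1b, Scnn1g, Fxyd4 and Gata3 held none of the 3 motifs. Among 32851 promoter windows of the same length, 9.99 percent held AGATAA, 17.8 percent TGACG and 16.1 percent TGTTCT. A match is a description of the letters only.

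The deposited values are log2 expression values, so a difference of 1 is a doubling. The labelling kit the labels name is one used for small RNAs, whereas the probe sets named here are those of genes, and how the labelling bears on the values is not known here. Array medians lay between 5.18 and 5.25. Precision is limited by the small number of arrays. A gene was tested when its mean over the 8 arrays exceeded 6.64, the 75th percentile of all probe sets, which 7145 genes did. Of the 10 genes 8 passed. Avpr2 and Gata3 did not, so their p-values come from the same fit without the filter, over 22180 genes. Tests are two-sided limma tests with Benjamini-Hochberg adjustment over all genes of the fit, and a gene was called when its adjusted p was under 0.05.

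The sex of the mice, which the arrays show through Xist and 3 Y-linked genes, differed between the groups. Xist measured between 8.85 and 10.02 on 4 arrays, which were read as female, and between 4.52 and 4.64 on the other 4, which were read as male. Both wild type mice were read as male. Each mutant group had 2 females and 1 male, the males being double mutant 3 and single mutant 2. Across the tested genes these 2 arrays correlated at 0.948 with each other, while single mutant 2 correlated with single mutants 1 and 3 at 0.865 and 0.839. Each comparison is therefore given from a fit of the 3 groups and from a fit with an added term for sex. In the second fit the sex term rests on 1 male per mutant group, so sex and those single kidneys cannot be told apart. No wild type kidney was read as female, so that fit takes the sex gap of the mutants to hold in wild type, which was not measured. The targeted gene Col4a3 measured between 6.13 and 7.67 in the 6 mutants, against 8.77 and 8.42 in wild type, and whether its probes lie in the deleted stretch is not known here. The osteopontin gene was not analysed here.

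Against wild type, Aqp4 had the largest shift of the 10 genes in both mutants, followed in the 3-group fit by Aqp3 in double mutants and Fxyd4 in single mutants. The receptor Avpr2, the regulated water channel Aqp2 and the 3 sodium channel subunits had differences between -0.34 and 0.17. No member was called in either comparison with the 3-group fit. With the sex term Aqp4 was called lower in both mutants, Aqp3 in double mutants and Scnn1a in single mutants. Between the 2 mutants no member was called by either fit.

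**Figure D1:**
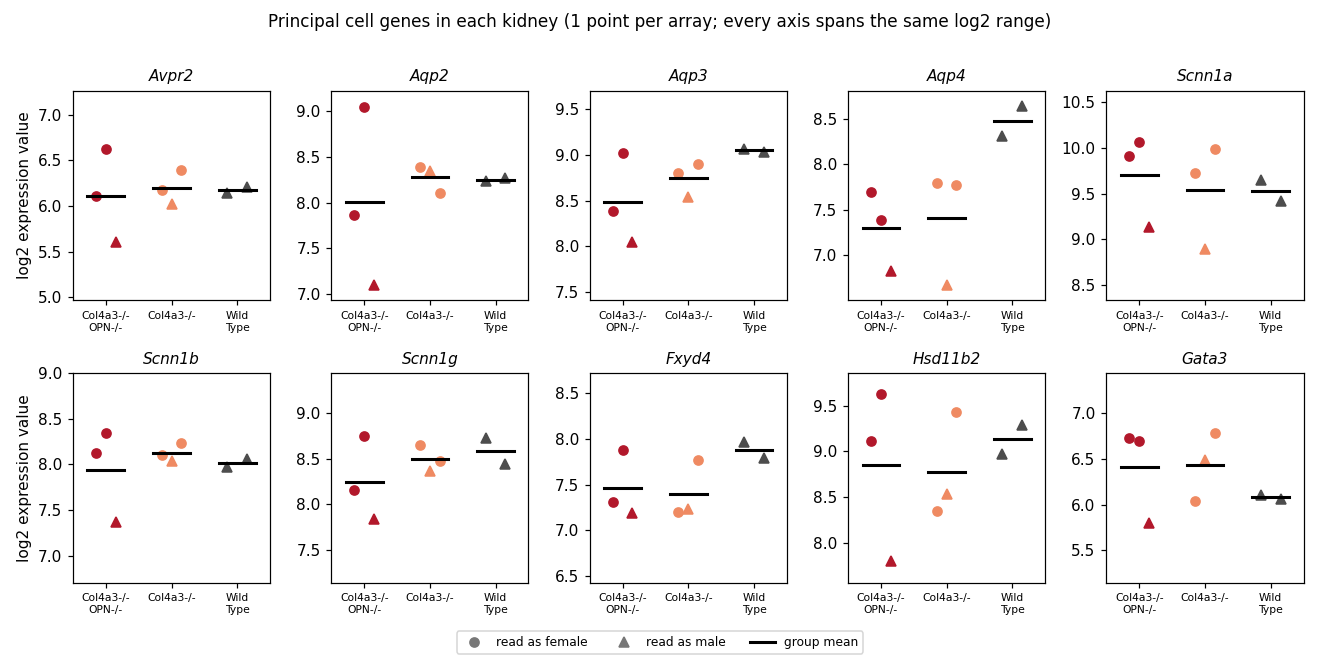
Log2 expression value (y axis) of each principal cell gene in every kidney, 1 panel per gene, with Col4a3-/-OPN-/-, Col4a3-/- and wild type groups from left to right. Circles are kidneys read as female, triangles kidneys read as male and bars group means. All 6 mutant kidneys lie below both wild type kidneys for Aqp4 and Aqp3, and the male double mutant is the lowest point for 8 of the 10 genes.

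Aqp4, which lets water out on the blood side of the cell, measured 7.69, 7.39 and 6.83 in double mutants 1, 2 and 3. It measured 7.79, 6.68 and 7.77 in single mutants and 8.31 and 8.63 in wild type. All 6 mutants lay below both wild type kidneys, and within each mutant group the male was the lowest. The gene lies on chromosome 18 at 15389394 to 15410982 (GRCm38). Its mean was 7.30 ± 0.44 (SD, n = 3) in double mutants, 7.41 ± 0.64 (SD, n = 3) in single mutants and 8.47 ± 0.23 (SD, n = 2) in wild type. Double mutants minus wild type came to -1.17 (SE 0.38, 95% interval -2.04 to -0.29, adjusted p = 0.141 in limma). Single mutants minus wild type came to -1.06 (SE 0.38, 95% interval -1.93 to -0.18, adjusted p = 0.162). Neither passed. Fitted with the sex term, the differences were -1.77 (SE 0.20, adjusted p = 0.0047) in double mutants and -1.66 (SE 0.20, adjusted p = 0.0063) in single mutants, and Aqp4 fell in both. As fitted these are 3.41-fold and 3.16-fold lower levels, against 2.25-fold and 2.08-fold in the 3-group fit. In the fit with the sex term the median of all tested genes was itself shifted by -0.15 in both comparisons. Relative to it Aqp4 lay at -1.62 in double mutants and -1.52 in single mutants. Without single mutant 2 the single mutant difference was -1.40 with the sex term and was no longer called (adjusted p = 0.0722).

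Aqp4 is also a transcript of the proximal tubule, so the 7 proximal tubule markers (Slc34a1, Lrp2, Cubn, Slc5a2, Slc5a12, Slc22a6 and Aqp1) are given beside it. These markers were listed for the proximal tubule and not for its straight part. Their mean, relative to wild type, was -0.53, -0.78 and -0.68 in double mutants 1, 2 and 3 and -0.37, -1.63 and -0.13 in single mutants. Aqp4 relative to wild type was -0.78, -1.09 and -1.64 in double mutants and -0.68, -1.79 and -0.71 in single mutants. Among single mutants, number 2 was the lowest in both series, whereas among double mutants number 3 was the lowest for Aqp4 and number 2 for the proximal markers. In the fit with the sex term, 3 of the 7 proximal markers were called lower in double mutants, where 17.8 percent of tested genes were, and 4 in single mutants, where 19.9 percent were. The part of proximal tubule cells in the Aqp4 difference was not tested. In a whole kidney, fewer cells of a type and less RNA per cell cannot be told apart.

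Aqp3, the second water channel of the blood side (chromosome 4, 41092724 to 41098183), measured 8.38, 9.02 and 8.04 in double mutants. It measured 8.80, 8.54 and 8.90 in single mutants and 9.07 and 9.04 in wild type. All 6 mutants again lay below both wild type kidneys, with double mutant 2 close to them. In the 3-group fit the difference from wild type was -0.57 in double mutants (SE 0.27, adjusted p = 0.256) and -0.30 in single mutants (SE 0.27, adjusted p = 0.492). Adding the sex term gave -0.89 (SE 0.23, adjusted p = 0.0306) and -0.63 (SE 0.23, adjusted p = 0.0783). Aqp3 fell in double mutants in that fit and did not pass in single mutants, while double against single mutants also did not pass. That call was lost without either wild type kidney, without single mutant 3 or double mutant 3, without the filter, with array weights and after quantile normalization, with adjusted p between 0.0544 and 0.199. In single mutants Aqp3 was called without double mutant 2 (-0.52, adjusted p = 0.0457).

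Of the 10 genes, Aqp3 and Aqp4 had no overlap between all 6 mutants and wild type, both lower. The same held for 21.4 percent of the 7145 tested genes. Between single mutants and wild type, Fxyd4 also did not overlap and was lower, which makes 3 of 10 against 29.1 percent of tested genes. Between double mutants and wild type the count was 2 of 10 against 28.8 percent. None of the 10 was higher without overlap, where 17.4 percent of tested genes were in double mutants and 19.3 percent in single mutants.

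Aqp2, the water channel that vasopressin moves to the urine side (chromosome 15, 99579056 to 99584545), measured 7.86, 9.05 and 7.10 in double mutants. It measured 8.39, 8.34 and 8.10 in single mutants and 8.23 and 8.27 in wild type. Double mutants spread over 1.95 with values on both sides of the others, while single mutants spread over 0.29 and wild type lay within them. The means were 8.01 ± 0.98 (SD, n = 3) in double mutants, 8.28 ± 0.16 (SD, n = 3) in single mutants and 8.25 ± 0.03 (SD, n = 2) in wild type. The difference from wild type was -0.25 (SE 0.47, 95% interval -1.33 to 0.84, adjusted p = 0.788) in double mutants and 0.03 (SE 0.47, 95% interval -1.06 to 1.11, adjusted p = 0.981) in single mutants. Neither passed, and both intervals are wide. They were -0.67 and -0.39 with the sex term, and neither passed. Those values rest on single kidneys. In double mutants the value was 0.30 without double mutant 3 and -1.15 without single mutant 2. In single mutants it was 0.09 without double mutant 3 and -1.36 without single mutant 2.

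Avpr2, the vasopressin receptor (chromosome X, 73891765 to 73894428), had low signal, with 6.11, 6.62 and 5.61 in double mutants. It measured 6.18, 6.03 and 6.39 in single mutants and 6.14 and 6.20 in wild type. As for Aqp2, double mutant 2 was the highest and double mutant 3 the lowest of the 8 kidneys. The difference from wild type was -0.06 (SE 0.27) in double mutants and 0.03 (SE 0.27) in single mutants, and with the sex term -0.40 and -0.31. None passed. Leaving out 1 kidney moved the sex-term values between -0.56 and -0.07 in double mutants and between -0.64 and -0.14 in single mutants.

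The order of the kidneys differed among the 3 sodium channel subunits. Scnn1a, the subunit the channel cannot do without (chromosome 6, 125314271 to 125344943), measured 9.91, 10.06 and 9.13 in double mutants. It measured 9.72, 8.89 and 9.98 in single mutants and 9.65 and 9.42 in wild type. The 4 female mutants lay above both wild type kidneys and the 2 male mutants below them. The 3-group differences from wild type were 0.17 in double mutants and 0.0005 in single mutants, and neither passed. Adding the sex term made them -0.43 (SE 0.16, adjusted p = 0.0869) in double and -0.60 (SE 0.16, adjusted p = 0.0329) in single mutants, so Scnn1a fell in single mutants in that fit. Relative to the shift of all genes the single mutant value was -0.46. The call was lost after quantile normalization (-0.37, adjusted p = 0.120), after cyclic loess (-0.41, adjusted p = 0.0945), with array weights, without the filter, and without either wild type kidney, single mutant 2 or double mutant 2. The difference itself stayed below 0 in all 16 repeats of that fit.

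Scnn1b (chromosome 7, 121865038 to 121918728) measured 8.12, 8.34 and 7.37 in double mutants. It measured 8.10, 8.04 and 8.23 in single mutants and 7.97 and 8.06 in wild type. Scnn1g, which lies 96.6 kilobases before it (chromosome 7, 121734420 to 121768482) measured 8.16, 8.75 and 7.84 in double mutants. It measured 8.65, 8.36 and 8.48 in single mutants and 8.73 and 8.44 in wild type. For both genes double mutant 2 was the highest and double mutant 3 the lowest of the 8 kidneys, and the groups overlapped. Scnn1b differed from wild type by -0.07 in double mutants and 0.11 in single mutants, and Scnn1g by -0.34 and -0.09. The sex term made them -0.41 and -0.23 for Scnn1b and -0.61 and -0.36 for Scnn1g, and none passed. In double mutants Scnn1b was called without single mutant 2 (-0.65, adjusted p = 0.0432) and was at 0.08 without double mutant 3. Scnn1g was called there without double mutant 2 (-0.71, adjusted p = 0.0369) and was at -0.34 without double mutant 3. In single mutants Scnn1b was at -0.72 without single mutant 2 and 0.02 without double mutant 3, and Scnn1g was at -0.64 without single mutant 2 and -0.22 without wild type 1.

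Hsd11b2, which shields the mineralocorticoid receptor (chromosome 8, 105518746 to 105523988), measured 9.11, 9.62 and 7.80 in double mutants. It measured 8.35, 8.54 and 9.43 in single mutants and 8.97 and 9.29 in wild type. Its range within the double mutants, 1.82, was close to that of Aqp2. The differences from wild type were -0.28 (SE 0.52) in double mutants and -0.36 (SE 0.52) in single mutants, and with the sex term -0.93 and -0.999. None passed. Leaving out 1 kidney moved the sex-term value between -1.33 (without single mutant 2) and -0.12 (without double mutant 3) in double mutants. In single mutants the same 2 kidneys gave -1.81 and -0.59. Hsd11b2 was called in double mutants without single mutant 1 (-1.14, adjusted p = 0.0331).

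Fxyd4, the partner of the sodium pump (chromosome 6, 117933558 to 117937714), measured 7.31, 7.88 and 7.18 in double mutants. It measured 7.20, 7.23 and 7.77 in single mutants and 7.97 and 7.79 in wild type. The 3 single mutants lay below both wild type kidneys, and double mutant 2 lay between the wild type values. The differences from wild type were -0.42 (SE 0.25, adjusted p = 0.362) in double mutants and -0.48 (SE 0.25, adjusted p = 0.280) in single mutants. Adding the sex term made them -0.64 (adjusted p = 0.104) and -0.70 (adjusted p = 0.0806), and neither passed.

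Gata3, the transcription factor (chromosome 2, 9857078 to 9887953), measured 6.72, 6.70 and 5.80 in double mutants. It measured 6.04, 6.49 and 6.79 in single mutants and 6.10 and 6.06 in wild type. It was the 1 gene of the 10 whose 3-group difference lay above 0.3 in either mutant, at 0.33 (SE 0.33) in double mutants and 0.36 (SE 0.33) in single mutants, and neither passed. The sex term made them 0.05 and 0.08, with values without 1 kidney on both sides of 0, between -0.28 and 0.71 in double mutants and between -0.58 and 0.41 in single mutants. T cells also make Gata3. None of the 5 measured T cell markers (Cd3d, Cd3e, Cd3g, Cd4 and Cd8a) passed the filter, and their mean ranged from 5.36 to 6.20 in double mutants and from 5.17 to 5.56 in single mutants, against 5.09 in both wild type kidneys. Their part in the Gata3 values was not tested.

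Counted over the 10 genes, 0 were called in the 3-group fit for double mutants against wild type, where 0.084 percent of tested genes were called. For single mutants against wild type 0 were called, where 0.028 percent of tested genes were. By the unadjusted limma p, 1 of the 10 genes, Aqp4, lay under 0.05 in each, where 21.6 percent of tested genes did in double mutants and 23.2 percent in single mutants. The median difference of the 10 genes was -0.27 in double mutants and -0.05 in single mutants, beside -0.08 and -0.07 over all tested genes. In the fit with the sex term 2 of the 8 tested members were called lower in double mutants, where 17.8 percent of tested genes were called lower, and 2 of 8 in single mutants, where 19.9 percent were. None was called higher, where 6.4 percent of tested genes were in double mutants and 7.31 percent in single mutants. Of the 10 genes 9 lay below 0 in that fit in each comparison, with medians of -0.63 in double mutants and -0.50 in single mutants, beside -0.15 over all tested genes in each. Over all tested genes 62.2 percent lay below 0 in double mutants and 60.7 percent in single mutants. Each count of 2 of 8 called lower lies near the shares of tested genes called lower. Both mutants were set against the same 2 wild type kidneys.

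**Figure D2:**
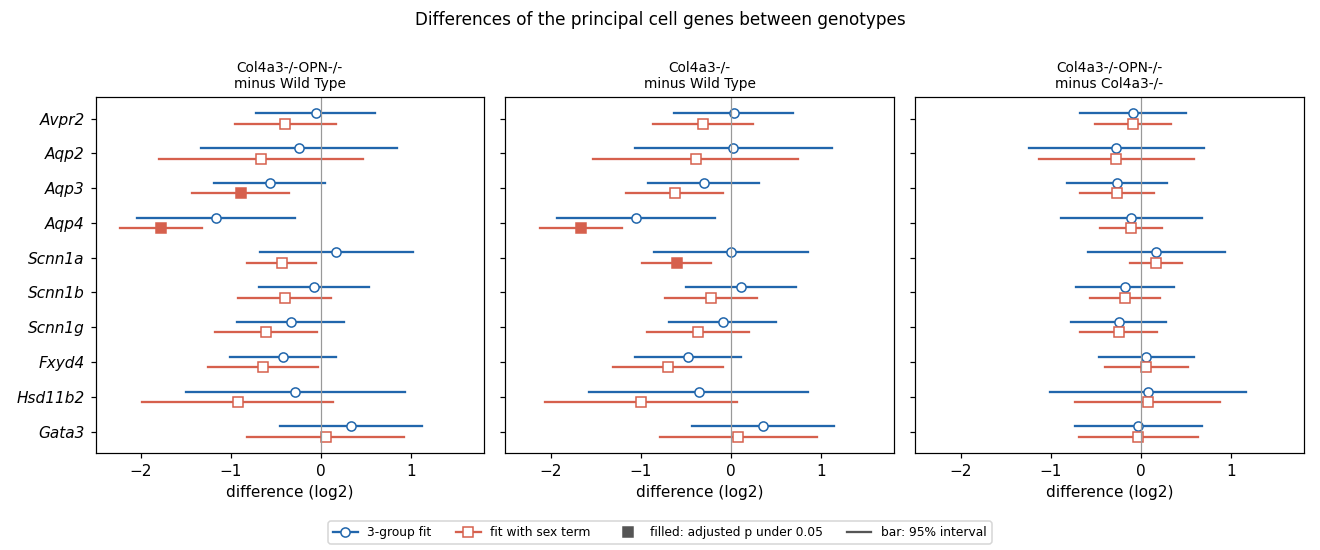
Difference on the log2 scale (x axis) of each principal cell gene (y axis) for double mutants minus wild type, single mutants minus wild type, and double minus single mutants. Blue circles are the 3-group fit, red squares the fit with a sex term, bars 95% intervals and filled symbols an adjusted p under 0.05. Aqp4 lies farthest below 0 in both comparisons with wild type, and every interval of the double minus single comparison includes 0.

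Loss of osteopontin on the Col4a3-/- background is addressed by the double against the single mutant. No member was called (0 of 10, with 0 percent of tested genes called), and 0 of the 10 had an unadjusted p under 0.05 in limma with or without the sex term. The differences lay between -0.27 for Aqp2 (95% interval -1.24 to 0.70) and 0.17 for Scnn1a (95% interval -0.59 to 0.93). For Aqp4 the difference was -0.11 (95% interval -0.89 to 0.67), and with the sex term the interval was -0.45 to 0.23. The groups overlapped for every member, where 3 percent of tested genes were lower and 2.02 percent higher without overlap. Of the 8 kidneys the double mutants held both the highest and the lowest for 5 genes, namely Aqp2, Avpr2, Scnn1b, Scnn1g and Hsd11b2. For each of these the highest was double mutant 2 and the lowest double mutant 3. The share of all tested genes for which this held was not counted.

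The spread among double mutants came from opposite kidneys. Double mutant 2 was the highest of the 8 kidneys for 6 of the 10 genes, and double mutant 3 the lowest for 8. Double mutant 3 was the lowest kidney for 20.6 percent of all tested genes and double mutant 2 the highest for 10.3 percent. The mean of the 10 genes relative to wild type was -0.18, 0.23 and -0.85 in double mutants 1, 2 and 3, and -0.20, -0.40 and 0.07 in single mutants. Leaving Aqp4 out, it was -0.11, 0.37 and -0.76 in double mutants and -0.14, -0.25 and 0.15 in single mutants. The low kidney of each mutant group was its male.

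All 10 genes were higher in female than in male mutants as fitted, and Scnn1a and Aqp4 passed the test. In the fit with the sex term Scnn1a was higher in females by 0.91 (SE 0.13, adjusted p = 0.0102 in limma) and Aqp4 by 0.91 (SE 0.16, adjusted p = 0.0170), each 1.87-fold. These are 2 of 8 tested members, where 8.22 percent of tested genes were called higher. The other 8 differences lay between 0.33 for Fxyd4 and 0.96 for Hsd11b2 and did not pass. The median of the 10 genes was 0.50, beside 0.09 over all tested genes, of which 38.0 percent lay below 0. Other markers also differed in this contrast as fitted. The 7 tested macrophage genes all lay below 0 (median -0.67, 0 called), and the proximal tubule median was 0.83, with 2 of 7 called higher. The macrophage list mean relative to wild type was 1.69 in the male and 1.62 and 2.01 in the female double mutants, and 2.37 in the male and 0.85 and 0.83 in the female single mutants. The proximal tubule list mean was -0.68 in the male and -0.53 and -0.78 in the female double mutants. In single mutants it was -1.63 in the male and -0.37 and -0.13 in the females. For both lists the male double mutant thus lay between the female double mutants. The part of these lists in the differences was not tested. Because each mutant group had 1 male, this compares 4 female kidneys with 2 male ones. Neither call held without single mutant 2, where adjusted p was 0.0687 for Scnn1a and 0.120 for Aqp4. The Aqp4 call was also lost without single mutant 3 (adjusted p = 0.0564), without double mutant 1 and without the filter (adjusted p = 0.0521). Hsd11b2 was called higher in females without single mutant 1 (1.28, adjusted p = 0.0302).

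Female minus male was 0.85 for Scnn1a in double mutants and 0.96 in single mutants. For Aqp4 it was 0.71 in double mutants and 1.10 in single mutants. Aqp2 and Gata3 had 1.36 and 0.91 in double mutants, against -0.09 and -0.08 in single mutants. Hsd11b2 had 1.57 in double and 0.35 in single mutants. The test of that difference between genotypes passed for no member (0 of 10, with 0 percent of tested genes called), with the smallest unadjusted p for Scnn1b at 0.0176 (adjusted p = 0.256) and for Aqp2 at 0.0474 (adjusted p = 0.386). The 4 female and 2 male mutants did not overlap for Aqp4, Avpr2, Scnn1a and Scnn1b, all higher in females, as was the case for 29 percent of tested genes.

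**Figure D3:**
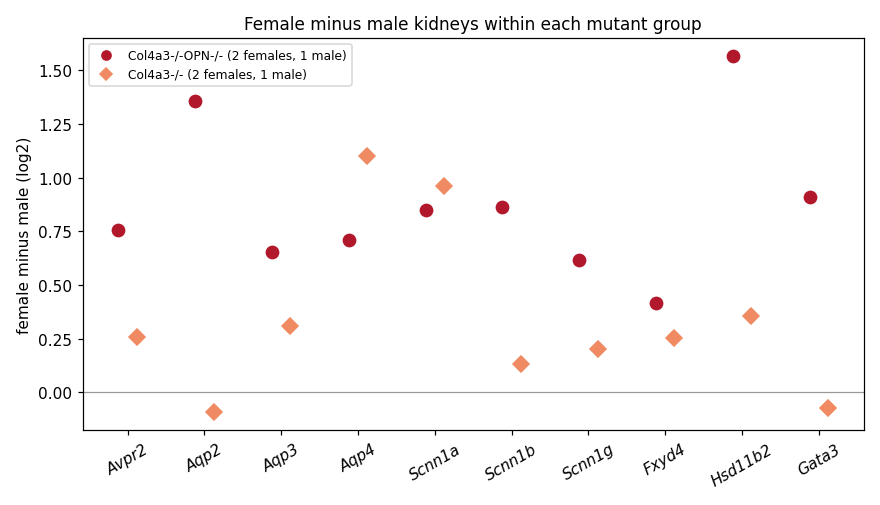
Female minus male difference on the log2 scale (y axis) of each principal cell gene (x axis) within double mutants (circles) and single mutants (diamonds). Each point is the mean of 2 female kidneys minus 1 male kidney, with no error, and points for Scnn1a lie close together while those for Aqp2 and Hsd11b2 lie far apart.

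Within male kidneys alone, with 1 mouse per mutant group and no test, Aqp4 differed from wild type by -1.64 in the double mutant and by -1.79 in the single mutant. The differences of Aqp3 were -1.01 in the double and -0.51 in the single mutant, and those of Scnn1a -0.40 and -0.64. Aqp2 differed by -1.15 in the double and 0.09 in the single mutant. Of the 10 genes, 7 were lower in both male mutants than in both wild type males, where 47.5 percent of tested genes were.

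Other genes of the vasopressin and aldosterone pathways were followed in lists. Of 15 genes of vasopressin signalling and water channel trafficking 14 were measured and 11 tested. None was called in the 3-group fit, and with the sex term 1 of 11 was lower in each mutant and 0 higher, where 17.8 percent of tested genes were lower in double and 19.9 percent in single mutants. It was Prkaca, a catalytic subunit of protein kinase A, at -0.72 (adjusted p = 0.0423) in double and -0.74 (adjusted p = 0.0361) in single mutants against wild type. Without the sex term Prkaca was at -0.39 in double and -0.41 in single mutants. The adenylyl cyclase Adcy6 and Creb1, a cAMP-responsive transcription factor, had 3-group differences of 0.16 and 0.29 in double mutants and 0.56 and 0.32 in single mutants, and neither passed. Fitted with the sex term, Adcy6 and Creb1 were at 0.04 and 0.24 in double mutants and 0.44 and 0.27 in single mutants, and neither passed. With that term the list median was 0.02 in double and -0.09 in single mutants, beside -0.15 over all genes in each.

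Of 15 genes of the aldosterone response and sodium channel regulation 14 were measured and 13 tested. None was called in the 3-group fit, and with the sex term 2 of 13 were lower in each mutant, under the same shares of all tested genes. Prss8, a protease that activates the sodium channel, was lower by a difference of -0.99 (adjusted p = 0.0145) in double and -1.08 (adjusted p = 0.0108) in single mutants. Klhl3, an adaptor that marks WNK kinases for breakdown, differed by -0.98 (adjusted p = 0.0125) in double and -0.68 (adjusted p = 0.0285) in single mutants. Without the sex term Prss8 was at -0.45 in double and -0.54 in single mutants, and Klhl3 at -0.36 and -0.06. Stk39, a kinase downstream of the WNK kinases, had 3-group differences of 0.25 in double and 0.54 in single mutants and did not pass. With the sex term they were 0.10 and 0.40, and neither passed.

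Of 11 collecting duct transcription factors and epithelial genes 4 were tested. With the sex term 1 of the 4 was called higher in double and 0 in single mutants. Over all tested genes 6.4 percent were called higher in double and 7.31 percent in single mutants. The median of the 4 genes with the sex term was 0.41 in double and 0.49 in single mutants, beside -0.15 over all tested genes. Without that term it was 0.43 in each mutant, with 0 of the 4 below 0, beside -0.08 and -0.07 over all tested genes. Elf3, an epithelial transcription factor also known from injured epithelium, was higher in double mutants with the sex term by 1.48 (adjusted p = 0.0299). In single mutants it did not pass, at 0.70 (adjusted p = 0.193). In the 3-group fit its differences were 1.33 (adjusted p = 0.0878) in double and 0.55 (adjusted p = 0.329) in single mutants. Of 6 genes of the response to tonicity 4 were measured and 3 tested. With the sex term 1 of the 3 was called higher in each mutant, beside the same 6.4 and 7.31 percent of tested genes. Nfat5, the transcription factor that responds to high tonicity around the cell, was higher with the sex term by 0.90 (adjusted p = 0.0186) in double and 0.97 (adjusted p = 0.0143) in single mutants. In the 3-group fit these were 0.79 (adjusted p = 0.0770) and 0.86 (adjusted p = 0.0824), and neither passed. Slc6a6, a taurine transporter, had 3-group differences of 0.31 in double and 0.27 in single mutants and did not pass. With the sex term Slc6a6 was at 0.06 and 0.02, and Hspa4l, also tested, at -0.24 and -0.30, and none passed. The list median in that fit was 0.06 in double and 0.02 in single mutants, beside -0.15 over all tested genes in each. All calls of these lists rest on the fit with the sex term.

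The principal cell genes were set beside markers of the other tubule segments. In double and single mutants, with the 3-group fit, the list median against wild type was 0.09 and 0.15 for intercalated cells, -0.01 and 0.03 for the distal convoluted and connecting tubule, and 0.04 and 0.18 for the loop of Henle. It was -0.53 and -0.52 for the proximal tubule, 7 of 7 members below 0 in each, and 1.83 and 1.29 for macrophages, 0 of 7 below 0 in each. Over all tested genes 59.2 percent lay below 0 in double and 57.2 percent in single mutants. No member of these lists was called in that fit. In the fit with the sex term the medians of the neighbouring segments lay below 0, like those of the principal cell genes. They were -0.67 and -0.56 for intercalated cells (3 of 9 called lower in each mutant). For the distal convoluted and connecting tubule they were -0.33 and -0.17 (2 and 1 of 6 lower). For the loop of Henle they were -0.40 and -0.26 (2 of 4 lower in each), and for the proximal tubule -1.16 and -1.17. Over all tested genes 17.8 percent were called lower in double and 19.9 percent in single mutants. The macrophage medians were 2.18 and 1.64, with 6 of 7 called higher in each, where 6.4 percent of tested genes were called higher in double and 7.31 percent in single mutants. The mean of the intercalated list was -0.52 in double mutant 3 and -0.54 in single mutant 2 relative to wild type and lay between 0.18 and 0.52 in the 4 female mutants. Of 7 urothelium markers 6 were measured, and their mean ranged from 5.84 to 6.31 in double mutants and from 5.79 to 6.28 in single mutants, against 5.79 to 5.96 in wild type. The part of urothelium in the Aqp3 values was not tested.

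**Figure D4:**
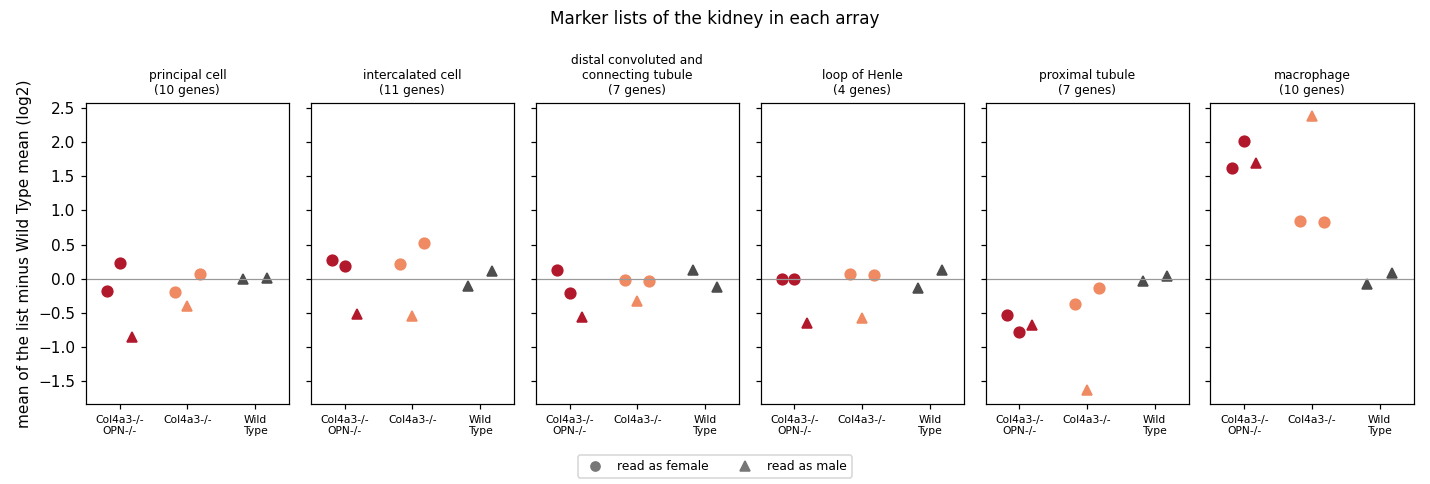
Mean log2 value of each marker list minus its wild type mean (y axis) in every kidney, for principal cells, intercalated cells, distal convoluted and connecting tubule, loop of Henle, proximal tubule and macrophages. Circles are kidneys read as female and triangles kidneys read as male. The male double mutant and the male single mutant are the lowest of their groups for the first 4 lists, and macrophage genes lie above wild type in all 6 mutants.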

How the data were processed

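Total RNA of each kidney was measured on 1 array. Per the labels' protocols RNA was extracted with a kit and biotin labelled, with a labelling kit that is used for small RNAs. The authors deposited log2 values, 1 per probe set and array. The unit was read from their range. For the normalization, not given in the sources used here, nothing was assumed, and values were used as deposited. Of 33793 probe sets 23521 named 1 gene, 1814 several and 8458 none in the platform annotation, and the brightest probe set of a gene was kept. Gene positions and promoters are from RefSeq (GRCm38).

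Groups were compared with limma 3.58.1 in R 4.3.3 (lmFit, eBayes) in 1 model of the 3 groups (5 residual degrees of freedom), or with a term for sex (4). An array with Xist above 7 was read as female. Females were tested against males by that sex term. A model of genotype by sex (3 residual degrees of freedom) tested whether the double minus single mutant difference differed between the sexes. Genes with a mean over the 75th percentile (6.64) were tested, 7145 of 22180, and Avpr2 and Gata3 were taken from a fit without that filter. The fit was tested on simulated data that held no difference between the sexes. Other scalings, filters, priors, array weights, a replicate block and leaving out each array were tried. The 10 genes are all named, and of each other list the called genes and then those with the smallest p, at most 4. Members and lists were chosen with earlier results of these data known. Plots were drawn with matplotlib 3.10.9.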

Additional observations from a re-analysis of the deposited data

How the results depend on the processing

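The 3-group fit called 0 of the 10 genes in each comparison. For single mutants against wild type this became 2 with the sex term and was 0 to 0 without each array in turn. For double mutants against wild type it became 2 with the sex term and 1 with array weights, and was 0 to 1 without each array, where Aqp4 was called without single mutant 2 (adjusted p = 0.0352). The Scnn1a difference of single mutants from wild type, 0.0005 in the 3-group fit, was -0.60 with the sex term. With the sex term the count for single mutants, 2, became 1 with array weights, cyclic loess, quantile normalization or no filter and was 0 to 2 without each array, with 0 without single mutant 2. The count for double mutants, 2, became 1 with array weights, quantile normalization or no filter and was 1 to 3 without each array. The count of members differing by sex, 2, became 1 without the filter and was 0 to 3 without each array. Double against single mutants gave 0 calls under every setting run. With the sex term the calls over all genes in single mutants against wild type split into 522 higher and 1424 lower as deposited and 814 and 1029 after cyclic loess. The repeats of the sex fit under other scalings and filters were chosen after seeing the data. Deviations of same-numbered single and double mutant kidneys from their group means correlated at 0.26, -0.34 and -0.58 for numbers 1, 2 and 3. The kidneys numbered 2 and those numbered 3 were of opposite sex, so these values cannot decide whether the numbers pair the mutants. With the number as a block 0 members were called in each comparison. Causes were not tested.

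The Aqp4 difference from wild type was below 0 in every setting run, from -2.03 to -0.93 in double mutants and from -1.82 to -0.69 in single mutants. Signal over background is not given, so low values such as those of Avpr2 and Gata3 are the least certain.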

Other observations

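Intercalated cells, the acid-base cells that share the collecting duct with principal cells, showed the sex difference in more of their genes. Of 9 tested markers 7 were higher in female than in male mutants, where 8.22 percent of tested genes were called higher. They included Atp6v0a4 by 0.92 (adjusted p = 0.0085 in limma) and Atp6v1b1 by 1.08 (adjusted p = 0.0095), subunits of the proton pump. Of 4 tested loop of Henle markers 1 was called higher, the salt transporter Slc12a1, by 0.93 (adjusted p = 0.0047). Of 11 tested genes of the vasopressin list 1 was, Slc14a2, a urea transporter of the collecting duct, by 1.32 (adjusted p = 0.0423). Of 13 tested genes of the aldosterone list 3 were called higher. Klhl3 and Prss8, also called lower in both mutants with the sex term, were higher by 0.92 (adjusted p = 0.0117) and 0.81 (adjusted p = 0.0212). Kcnj1, a potassium channel of the distal nephron, was higher by 1.26 (adjusted p = 0.0442). These values rest on 1 male per mutant group.

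Gata3 had a dimmer second probe set, with a mean of 5.34 over the 8 arrays against 6.34 for the one used. It measured 5.15, 5.50 and 5.37 in double mutants, 5.10, 5.36 and 5.44 in single mutants and 5.41 and 5.37 in wild type, so its values lay on both sides of wild type in both mutants.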
